A study of Mus musculus with 8 samples.

Results

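Itln1, Mptx1 and Mptx2 encode a secreted lectin and a pair of secreted pentraxins of the mouse intestine. They were chosen by name: the Ensembl gene IDs of the count table were matched to the symbols of GENCODE M39, each of the 3 symbols had 1 gene ID, and these are 3 of the 55414 gene IDs in the table. Expression was measured by RNA-seq in Paneth cells sorted by FACS from the small intestine of C57BL/6J mice, with 1 library per mouse. The water group held 4 mice that drank Milli-Q water and the zinc group held 4 mice whose ultrapure water contained 25 mM ZnSO4, in both groups for 7 days. The sources used here do not give the age of the mice. The comparison asks whether zinc in the drinking water changed the mRNA level of these genes, and p-values measure the spread between these mice.

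Intelectins are soluble lectins that mucosal cells release into the lumen, where they bind sugars that microbes carry on their surface. Pentraxins are pattern recognition proteins built as rings of identical subunits that bind their ligands with calcium. C-reactive protein and serum amyloid P, made by the liver, are the pentraxins of the blood, and the mucosal pentraxins Mptx1 and Mptx2 are their relatives in the gut. Itln1 and Mptx2 are known as Paneth cell products, and Paneth cells sit at the base of the crypts and fill their granules with α-defensins and lysozyme.

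All 3 genes lie on chromosome 1, and no other annotated gene overlaps any of them in GENCODE M39 (GRCm39). Itln1 (ENSMUSG00000038209, minus strand of chr1:171345690-171368943) has 7 annotated transcripts, its exons merge into 10 with 1300 bases, and its coding sequence has 313 codons. Mptx2 (ENSMUSG00000079180, minus strand of chr1:173101949-173105344) has 2 exons with 794 bases. Mptx1 (ENSMUSG00000026531, plus strand of chr1:174158084-174160439) has 2 exons with 799 bases. Both Mptx coding sequences have 219 codons.

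The transcripts of Mptx1 and Mptx2 are close copies, and this bears on how well their reads can be told apart. Aligned end to end, 734 of 799 positions were identical (91.9%), with 60 mismatches and 5 gap positions, and in the coding sequence 604 of 657 positions were identical. A coding stretch of 240 bases from exon 2 of each gene is shown because it holds both a long identical run and a cluster of differences (capitals mark the 18 positions at which the copies differ, GRCm39, chr1:174159760-174159999 on the plus strand for Mptx1 and chr1:173102384-173102623 on the minus strand for Mptx2).
Mptx1 exon 2: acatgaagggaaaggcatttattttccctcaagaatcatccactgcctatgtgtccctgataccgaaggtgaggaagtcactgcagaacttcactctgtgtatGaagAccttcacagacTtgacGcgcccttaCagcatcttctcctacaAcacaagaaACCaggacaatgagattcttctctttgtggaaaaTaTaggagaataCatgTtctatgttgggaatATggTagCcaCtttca
Mptx2 exon 2: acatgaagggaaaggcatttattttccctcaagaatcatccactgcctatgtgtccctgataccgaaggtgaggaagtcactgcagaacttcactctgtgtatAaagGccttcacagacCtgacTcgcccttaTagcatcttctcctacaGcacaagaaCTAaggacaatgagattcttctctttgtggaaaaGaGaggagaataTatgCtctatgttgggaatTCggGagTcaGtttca
The first 112 bases of the transcripts were the same, so reads that lie inside this start cannot be assigned to one of them. Of 706 windows of 75 bases along the alignment, 10.3% held no difference, 72.8% held 4 or more, and the median window held 7. The same holds for exact matches: 10.1% of the 75-base windows of either Mptx transcript also occurred in 1 other gene, while this share was 0 for Itln1. With windows of 50 bases it was 17.9% for Mptx1, 18.0% for Mptx2 and 1.006% for Itln1. The study gives an average read length for its datasets as a whole, of about the size of the longer windows, but none for these libraries alone, and it does not say how reads that map to several genes entered these counts. Accordingly the counts of Mptx1 and Mptx2 carry an uncertainty from shared sequence that is smaller for Itln1.

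**Figure D1:**
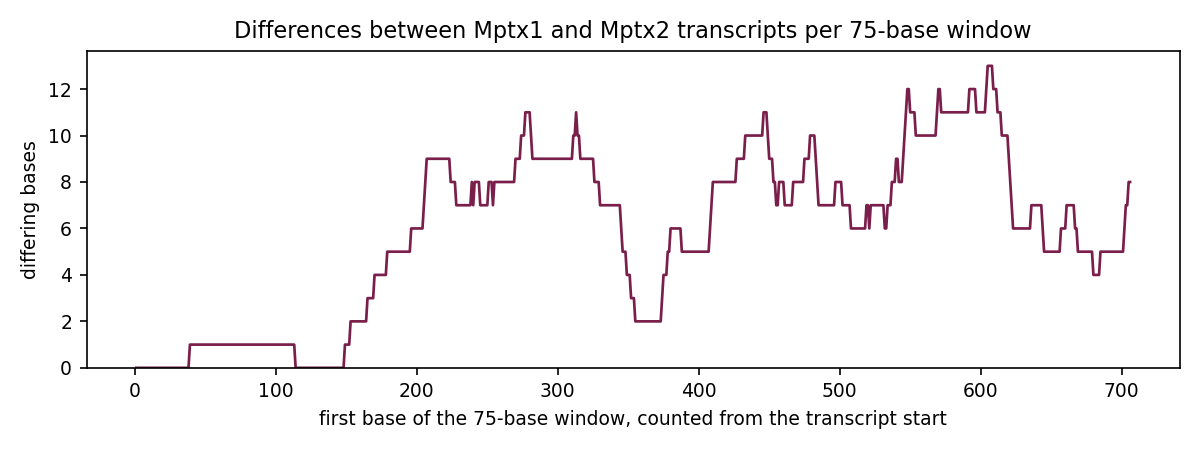
Number of differing bases between the Mptx1 and Mptx2 transcripts (vertical axis) in each 75-base window, by the first base of the window counted from the transcript start (horizontal axis). Windows near the start hold 0 or 1 difference, and the most divergent window holds 13.

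The similarity extends upstream of the transcription start. The sequences before the start are shown because the pentraxin copies, alike here too, differed widely in level, and the Itln1 sequence is given beside them (RefSeq, GRCm38.p6; in the Mptx sequences capitals mark bases that differ or have no partner in the other, and in the Itln1 sequence they mark ATAAAA). They span chr1:174330268-174330517 on the plus strand for Mptx1, chr1:173277778-173278006 on the minus strand for Mptx2 and chr1:171535296-171535544 on the minus strand for Itln1.
Mptx1 upstream: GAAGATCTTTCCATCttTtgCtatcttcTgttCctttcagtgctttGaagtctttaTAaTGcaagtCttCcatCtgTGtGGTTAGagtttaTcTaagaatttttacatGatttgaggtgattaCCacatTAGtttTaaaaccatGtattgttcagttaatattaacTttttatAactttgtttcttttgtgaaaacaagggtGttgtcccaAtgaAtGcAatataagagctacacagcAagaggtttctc
Mptx2 upstream: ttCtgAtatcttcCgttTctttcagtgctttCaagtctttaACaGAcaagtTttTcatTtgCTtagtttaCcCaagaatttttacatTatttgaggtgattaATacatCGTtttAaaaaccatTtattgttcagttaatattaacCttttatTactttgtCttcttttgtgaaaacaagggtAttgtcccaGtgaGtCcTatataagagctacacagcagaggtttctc
Itln1 upstream: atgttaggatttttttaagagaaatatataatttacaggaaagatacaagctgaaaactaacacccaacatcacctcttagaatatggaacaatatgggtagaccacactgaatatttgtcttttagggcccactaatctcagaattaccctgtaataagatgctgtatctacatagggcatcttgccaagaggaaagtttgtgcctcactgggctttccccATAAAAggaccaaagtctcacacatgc
In the aligned part of the Mptx sequences 197 of 236 positions were identical (83.5%), and of the last 100 aligned positions before the start 91 were identical. The motif TATAA, searched on both strands as were all motifs here, was found at 29, 80, 81, 196 and 197 bases before the start of Mptx1, at 28 bases before that of Mptx2 and at 223 bases before that of Itln1, and the matches at neighbouring positions overlap. ATAAAA was found at 83 bases before the start of both Mptx genes and at 27 bases before that of Itln1. Windows of 300 bases around the start of 32851 mouse promoters held TATAA in 24.9% and ATAAAA in 18.5% of cases, and these motifs can overlap. In the 3 windows CCAAT was found in Mptx1, 42 bases before the start, while 37.4% of all windows held it. The core of the metal response element, TGCACNC or TGCGCNC, was found in none of the 3 windows and in 25.7% of all windows. A match is a run of letters and no sign of binding.

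The libraries held 20760764 to 24117111 counts. The labelled cell type was checked against marker genes, and 8 Paneth cell markers, led by Defa24 and Lyz1, took 34.8% to 45.0% of the counts of a library. Other levels are given in CPM, counts per 1000000 on the TMM scale, in which each library total is multiplied by a factor that centres most genes. Summed markers of other cells were lower than those of Paneth cells: goblet cell markers (led by Muc2 and Agr2) reached 3838 to 5333 CPM with water and 4421 to 7724 CPM with zinc, and stem cell markers (Olfm4, Smoc2) 4407 to 5806 and 3107 to 4507 CPM. The sums were 77.4 to 121 and 99.6 to 129.6 CPM for enterocytes (Slc5a1, Fabp2), 5.63 to 86.2 and 9.56 to 44.0 CPM for enteroendocrine cells (Chgb, Chga), and 10.01 to 91.2 and 13.0 to 59.6 CPM for tuft cells (Dclk1, Trpm5). They were 15.4 to 34.6 and 13.8 to 24.9 CPM for leukocytes (Lyz2, Cd68) and at most 1.31 CPM for stroma (Vim, Pecam1), with 1 leukocyte and 2 stromal markers at 0 in all libraries. Nearly all of the leukocyte sum was Lyz2, with a mean of 21.5 CPM, and this gene was also listed among Paneth granule products. The other leukocyte markers had means of at most 0.213 CPM. The TMM factors ran from 0.764 in water 1 and 0.775 in zinc 1 to 1.21 in water 4 and 1.23 in zinc 4, so levels on this scale and plain shares of the counts are given side by side. In bulk RNA of sorted cells, fewer cells of a type and less RNA per cell cannot be told apart.

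Itln1 was the third gene by share of all counts as deposited. The water libraries 1 to 4 held 1695351, 1602064, 1620937 and 1430206 Itln1 counts, or 8.09%, 7.00%, 7.30% and 6.62% of their totals. The zinc libraries held 1856229, 1523986, 1868774 and 1358193 counts, or 8.53%, 7.34%, 7.75% and 6.45%. Library 4 was the lowest and library 1 the highest of both groups, and the groups overlapped over most of their range. The water mice averaged 7.25% ± 0.625 and the zinc mice 7.52% ± 0.868 (SD, n = 4 each), a difference of 0.26 percentage points within the spread of the mice (exact permutation p = 0.686). This test, two-sided here and in what follows, runs over the 70 ways to split 8 libraries into equal groups and cannot give a p below 0.0286. On the TMM scale the level was 106034, 68827, 68565 and 54616 CPM with water and 110228, 73578, 73830 and 52677 CPM with zinc. The highest of the 8 libraries stood 2.09-fold above the lowest on this scale and 1.32-fold on the scale of shares.

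Mptx2 was the ninth gene by share of the deposited counts. Its counts were 279351, 285056, 234558 and 194424 with water, or 1.33%, 1.25%, 1.06% and 0.900% of the totals. With zinc they were 247753, 187384, 324234 and 172313, or 1.14%, 0.903%, 1.34% and 0.818%. Both the highest and the lowest share belonged to zinc libraries, replicates 3 and 4, and the water libraries lay between them. The water mice averaged 1.13% ± 0.194 and the zinc mice 1.05% ± 0.238 (SD, n = 4 each), a difference within their spread (exact permutation p = 0.686). In CPM the water libraries had 17472, 12246, 9922 and 7425, and the zinc libraries 14712, 9047, 12810 and 6683. The highest library exceeded the lowest 2.61-fold in CPM and 1.64-fold in shares, a wider range than that of Itln1 on both scales.

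Mptx1 was counted at a trace. Mptx2 had 172313 to 324234 counts in a library, so a small share of misassigned Mptx2 reads could equal the Mptx1 counts. How many Mptx1 counts arose in this way was not tested. The water libraries held 104, 115, 97 and 194 counts and the zinc libraries 104, 99, 77 and 111 counts. In CPM these were 6.50, 4.94, 4.10 and 7.41 with water and 6.18, 4.78, 3.04 and 4.31 with zinc. Water 4 was the highest library and zinc 3 the lowest, and 3 of the 4 zinc libraries lay inside the water range. The 194 counts of water 4 have an exact Poisson 95% interval of 168 to 223, and the 77 counts of zinc 3 one of 60.8 to 96.2. The intervals do not overlap. They cover counting error only, and allow neither for depth nor for the choice of the highest and the lowest library. As a share of the total, water 4 had 0.000898% (Wilson 95% interval 0.000780% to 0.00103%) and the other 3 water libraries 0.000437% to 0.000502%. The difference of the mean shares lay within the spread of the mice (exact permutation p = 0.429).

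**Figure D2:**
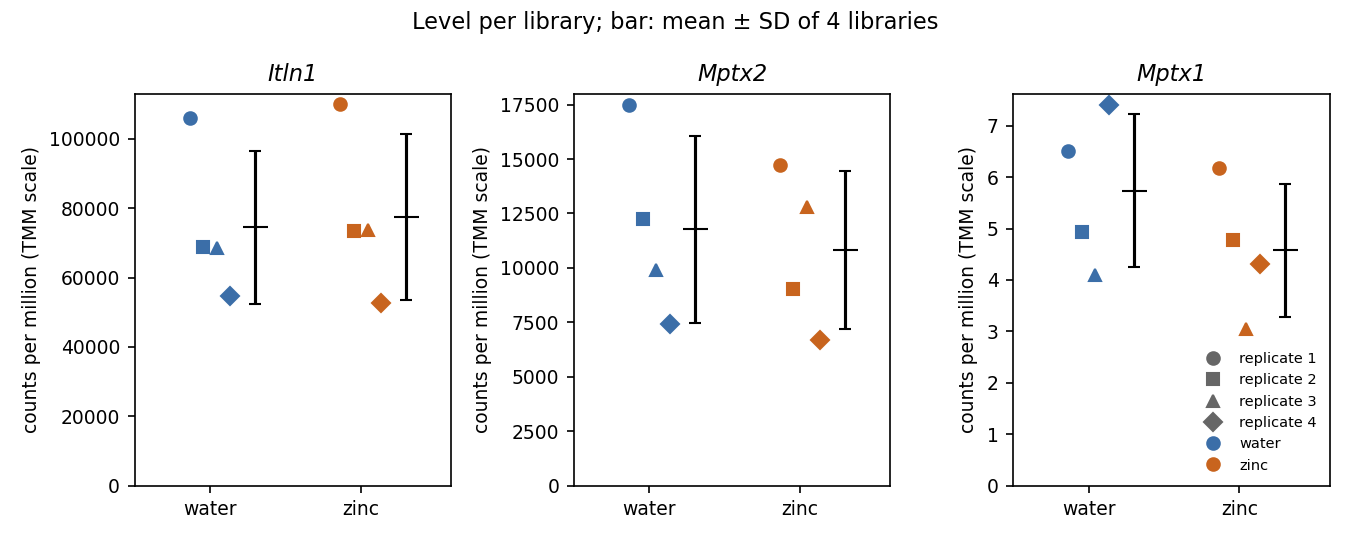
Level of Itln1, Mptx2 and Mptx1 in each library in CPM on the TMM scale (vertical axes, starting at 0), for 4 water (blue) and 4 zinc (orange) libraries. Marker shapes give the replicate number and bars the mean ± SD of 4 libraries. The groups overlap in every panel, with Itln1 at 52677 to 110228, Mptx2 at 6683 to 17472 and Mptx1 at 3.04 to 7.41.

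Levels of different genes were compared per length, as counts per base of merged exons scaled to a sum of 1000000 over all genes of a library (TPM). Itln1 had 53586 ± 1254 TPM with water and 56056 ± 2343 TPM with zinc, Mptx2 13649 ± 1411 and 12835 ± 2675 TPM, and Mptx1 7.16 ± 3.17 and 5.52 ± 1.35 TPM (SD, n = 4 each). The lysozyme gene Lyz1, the second gene on this scale, had 116362 ± 9435 and 119798 ± 6582 TPM. The order Itln1, Mptx2, Mptx1 held in 8 of 8 libraries, also when the longest protein-coding transcript replaced the merged exons. Per length, Itln1 exceeded Mptx2 by 3.43-fold to 4.97-fold in single libraries. Mptx2 exceeded Mptx1 by 1008-fold to 4237-fold, so the close copies differed far more in level than the lectin and the abundant pentraxin did. Over all genes in the deposited counts, Itln1 was the fifth, Mptx2 the tenth and Mptx1 the 2331st in TPM. These places depend on how reads of similar Defa genes were counted, with Defa20 at 0 to 5 counts in a library and Defa3 at a mean of 241 CPM. In the paper's typical experiment, with another quantification, the most abundant transcripts were those of Defa genes, Lyz1 and an intelectin. Mptx2 was not among them.

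None of the 3 genes passed the test of zinc against water across all genes. The edgeR quasi-likelihood test with Benjamini-Hochberg adjustment, threshold 0.05, called 0 of the 3 genes, and over all 11988 genes tested it called 10 (0.0834%), 3 higher and 7 lower with zinc. With so low a share of calls, no call among 3 genes says little about them, and the interval of each fold change is the more informative value. The unadjusted p was above 0.05 for all 3 genes and below it for 558 of all genes. DESeq2 and limma-voom also called 0 of the 3.

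For Itln1 the log2 fold change, zinc over water, was 0.06 (SE 0.33, 95% interval -0.65 to 0.76, edgeR adjusted p = 0.998), a fold of 1.04 with an interval of 0.638 to 1.70. For Mptx2 it was -0.12 (SE 0.30, interval -0.75 to 0.50, edgeR adjusted p = 0.998), a fold of 0.919 with an interval of 0.596 to 1.42. For Mptx1 it was -0.33 (SE 0.25, interval -0.86 to 0.20, edgeR adjusted p = 0.998), a fold of 0.793 with an interval of 0.55 to 1.15. The biological coefficient of variation was 0.235 for Itln1, 0.256 for Mptx2 and 0.245 for Mptx1, against a median of 0.172 over all genes. These intervals come from a fit with treatment only. With the replicate number as a block the SE was 0.11 for Itln1, 0.12 for Mptx2 and 0.21 for Mptx1, so the intervals depend on whether the number is used.

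The sign of the Itln1 and Mptx2 estimates rested on single libraries. Without water 4 the log2 fold change of Itln1 was -0.07 and without zinc 1 it was -0.16. Without water 1 that of Mptx2 was 0.13, and without zinc 4 it was 0.05. The estimate for Mptx1 ran from -0.51 to -0.19 over the 8 omissions and never turned. With library totals as the only scaling the SE of Itln1 was 0.15 and that of Mptx2 0.19, lower than on the TMM scale, while that of Mptx1 was 0.30.

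**Figure D3:**
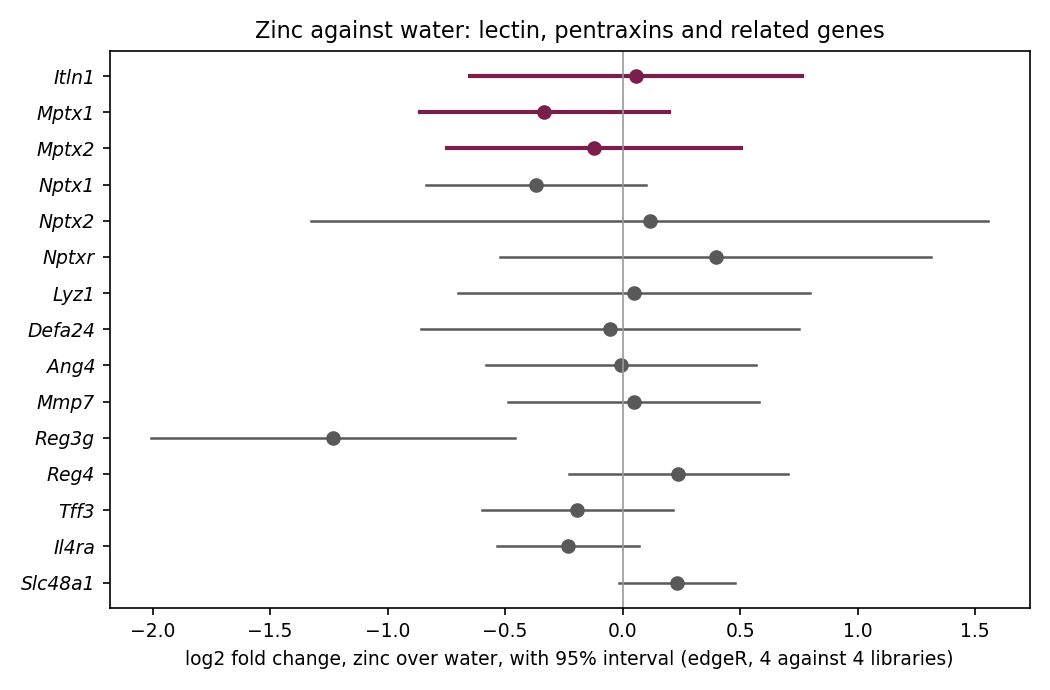
Log2 fold change, zinc over water, with its 95% interval from edgeR (horizontal axis) for Itln1, Mptx1 and Mptx2 (purple) and for related pentraxin, lectin, Paneth cell, cytokine receptor and haem genes (grey). The intervals of the 3 genes cover 0, and that of Reg3g, from -2.01 to -0.46, does not, although its adjusted p was 0.794.

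Ratios within a library do not depend on any scaling factor. Itln1 was set against the summed counts of 28 coding Defa genes, the α-defensins, and the ratio was 0.203, 0.206, 0.220 and 0.227 with water and 0.222, 0.216, 0.234 and 0.231 with zinc. This was the steadiest of 9 ratios examined, with an SD of 0.07 on the log2 scale over the 8 libraries. The log2 ratio was 0.08 higher with zinc and the groups overlapped (exact permutation p = 0.143, 0.739 adjusted over 9 ratios). The Defa sum holds only the reads that the deposited counts assigned to these genes, here and in what follows. Defa20 had 0 to 5 counts in a library and Defa3 a mean of 241 CPM. Both were among the most abundant Defa transcripts in the paper's typical experiment, which used another quantification. The sum may thus miss part of the α-defensin mRNA.

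Against Lyz1, Itln1 had 0.472 ± 0.0325 counts per count in the water mice and 0.480 ± 0.0468 in the zinc mice (SD, n = 4 each, exact permutation p = 0.8286). Against Mptx2, it had 6.07, 5.62, 6.91 and 7.36 counts per count with water and 7.49, 8.13, 5.76 and 7.88 with zinc. Here 3 of the 4 zinc libraries lay above all water libraries and zinc 3 lay below 3 of the 4 water libraries, and the log2 difference was 0.17 (exact permutation p = 0.229).

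The ratio of Mptx2 to the Defa sum was 0.0332 ± 0.00258 in the water mice and 0.0315 ± 0.0062 in the zinc mice (SD, n = 4 each, exact permutation p = 0.543). Zinc 3 had the highest ratio of the 8 libraries, 0.0406, and zinc 2 the lowest, 0.0266. Between the close copies, Mptx2 had 2686, 2479, 2418 and 1002 counts per Mptx1 count with water and 2382, 1893, 4211 and 1552 with zinc. Water 4 was the lowest and zinc 3 the highest, and the groups overlapped (log2 difference 0.22, exact permutation p = 0.657). The log2 differences of the ratios of Mptx1 to Lyz1 and to the Defa sum were -0.37 (exact permutation p = 0.286) and -0.31 (exact permutation p = 0.457). None of the 9 ratios had groups that stood apart, and the smallest p adjusted over the 9 was 0.739. Without water 4 the log2 difference of Mptx2 to Mptx1 was -0.12, and without zinc 3 it was -0.07.

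**Figure D4:**
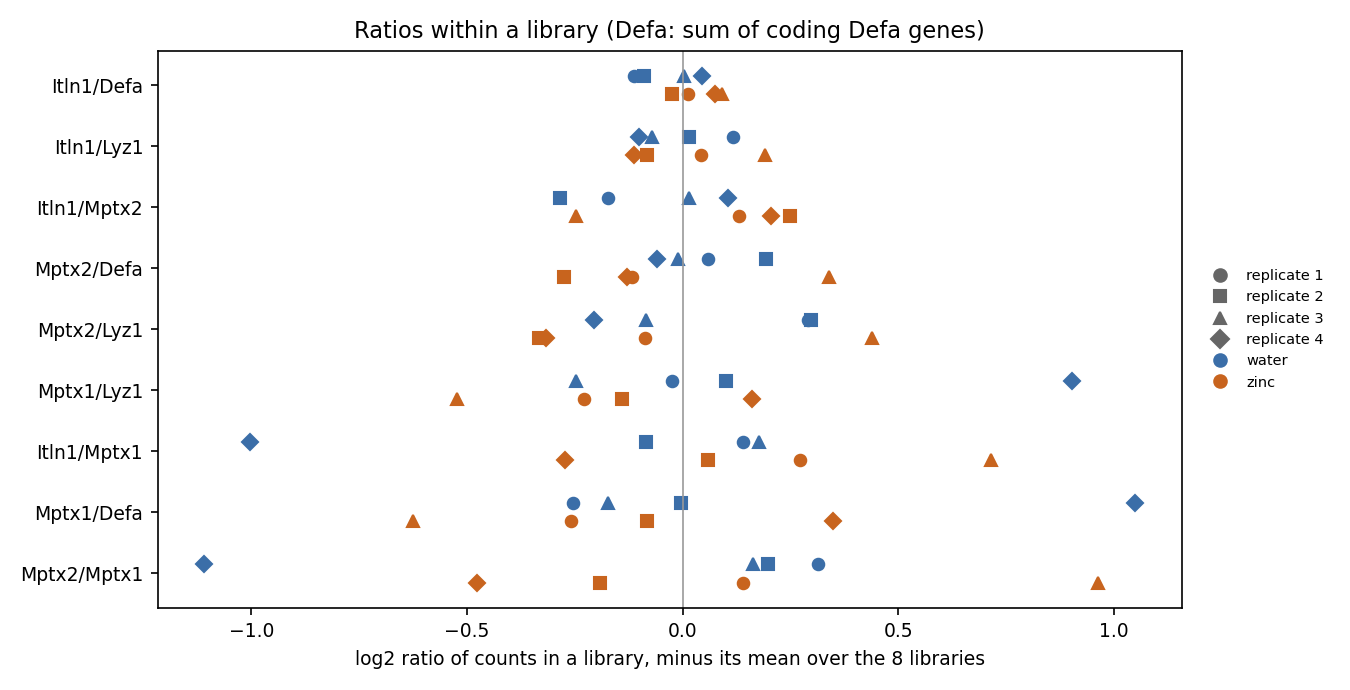
Log2 ratio of counts within each library after subtraction of its mean over the 8 libraries (horizontal axis) for 9 ratios (rows), with water in blue, zinc in orange and marker shapes for replicate numbers. Itln1 to the Defa sum is the tightest row, with a log2 SD of 0.07, and water 4 stands far out in the rows that hold Mptx1.

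Whether the genes moved together from mouse to mouse was examined over the 8 libraries, which share their scaling factor within a library. The permutations treat the 8 libraries as independent. Yet Itln1 levels with water and zinc were close in libraries 1 (106034 and 110228 CPM) and in libraries 4 (54616 and 52677 CPM). In libraries 2 they were 68827 and 73578 CPM, and in libraries 3 they were 68565 and 73830 CPM. The TMM factors were close within every number too, as in libraries 1 (0.764 and 0.775) and libraries 4 (1.21 and 1.23). If libraries of 1 number share a factor, which was not tested, these relations rest on fewer than 8 independent values. Their p-values are then too small. Centring on group means would not remove such a factor. On the TMM scale, log2 Itln1 and Mptx2 gave a Pearson r of 0.907 (exact permutation p = 0.0034) and a Spearman rho of 0.905 (exact permutation p = 0.0046), with p-values adjusted over 9 relations of 0.00765 and 0.0205. Without water 1 and zinc 1, the libraries farthest from the median, r was 0.845 (exact permutation p = 0.051). With library totals as the only scaling, r was 0.684 and rho 0.690 (exact permutation p = 0.069 for both), so the relation did not pass the threshold on that scale.

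Of the 9 relations, only that of Itln1 with the Defa sum had an r that passed it on both scales after adjustment. On the TMM scale r was 0.989 (exact permutation p = 0.00077, 0.00368 adjusted over 9 relations) and rho was 0.905 (exact permutation p = 0.0046, adjusted 0.0205). On library totals r was 0.915 (exact permutation p = 0.00367, adjusted 0.033), while rho was 0.810 (exact permutation p = 0.022, adjusted 0.196). Without water 1 and zinc 1 r was 0.968 on the TMM scale (exact permutation p = 0.0139). With each group centred on its own mean r was 0.994 (exact permutation p = 0.00032).

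Mptx2 with the Defa sum gave an r of 0.915 on the TMM scale (exact permutation p = 0.00273, adjusted 0.00765) and of 0.717 on library totals (exact permutation p = 0.047, adjusted 0.206). Its rho was 0.833 (exact permutation p = 0.0154, adjusted 0.0346), and without water 1 and zinc 4 r was 0.805 (exact permutation p = 0.053). With Lyz1, the r of Mptx2 was 0.788 (exact permutation p = 0.0207) and turned to -0.070 on library totals (exact permutation p = 0.865). The relation of Itln1 with Lyz1 also rested on the scale, with an r of 0.965 (exact permutation p = 0.00082) against 0.604 on library totals (exact permutation p = 0.115). Mptx1 gave no relation past the threshold over the 8 libraries, and its r was 0.235 with Itln1 (exact permutation p = 0.568) and 0.082 with Mptx2 (exact permutation p = 0.847). On library totals these were -0.513 (exact permutation p = 0.187) and -0.551 (exact permutation p = 0.159). Without water 4 and zinc 3, the r of Mptx1 on the TMM scale was 0.915 with the Defa sum (exact permutation p = 0.0222, not adjusted). With Lyz1 it was 0.865 (exact permutation p = 0.0389, not adjusted). Without water 1 and zinc 1 its r with Itln1 was -0.547 (exact permutation p = 0.326). Without water 1 and zinc 4 its r with Mptx2 was -0.368 (exact permutation p = 0.481). The ratio of Mptx2 to Mptx1 counts was not constant, with a range of 1002 to 4211 over the libraries. How many Mptx1 counts came from Mptx2 reads was not tested.

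**Figure D5:**
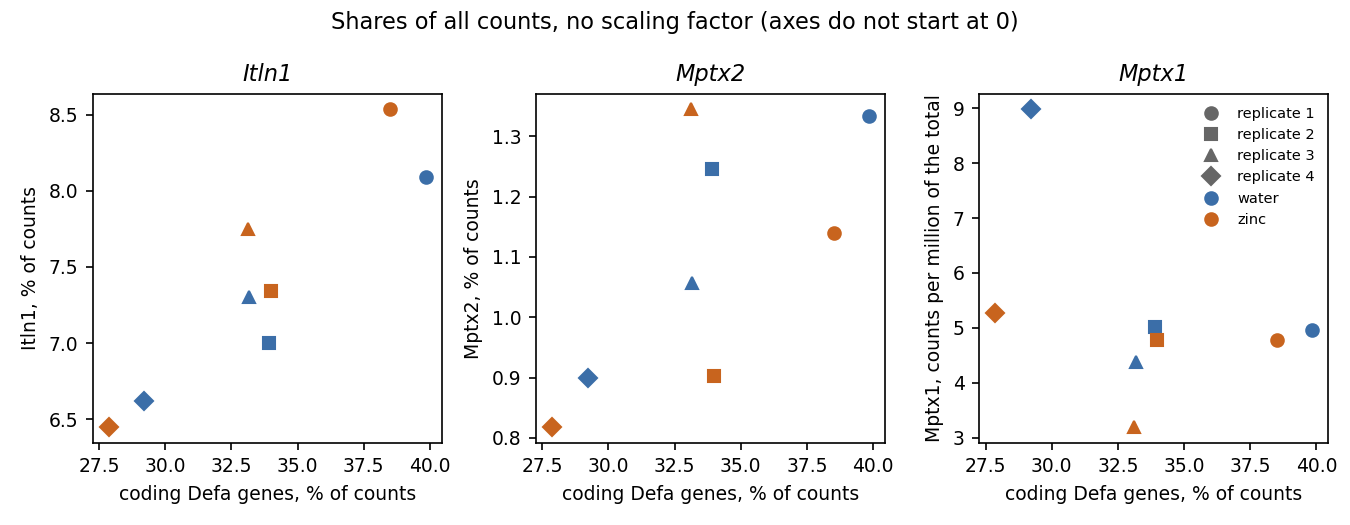
Share of all counts held by Itln1 and Mptx2 in percent, and by Mptx1 in counts per 1000000 (vertical axes), against the share of 28 coding Defa genes in percent (horizontal axes), 1 point per library, water in blue and zinc in orange. Axes do not start at 0. Itln1 rises with the Defa share, Mptx2 is more scattered with zinc 2 low and zinc 3 high, and Mptx1 shows water 4 apart from the rest.

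The likeness of other genes was measured by the r of log2 CPM over the 8 libraries after each group mean was removed, among genes with a mean of at least 10 CPM. For Itln1 the 5 likest genes were Mtarc2 (0.996), Defa24 (0.995), Bambi (0.990), Habp2 (0.987) and Ninj1 (0.986). On library totals Defa24 and Bambi kept a positive r with Itln1, 0.960 and 0.822, while Mtarc2, Habp2 and Ninj1 turned to -0.64, -0.78 and -0.83. For Mptx2 they were Abhd12 (0.988), Gskip (0.983), Nploc4 (0.979), Trim32 (0.976) and Defa39 (0.976). On library totals Defa39 had the highest r of these, 0.906, and Gskip had 0.757. Abhd12 and Trim32 fell to 0.252 and 0.202 on that scale, and Nploc4 turned to -0.45. For Mptx1 they were B4galt3, Rps20, Eef1a1, Rack1 and Rps14, with B4galt3 at 0.988 and the ribosomal protein gene Rps20 at 0.978. On library totals these 5 genes had an r of 0.751 to 0.861 with Mptx1. Mptx2 took place 67 in the order for Itln1, and Itln1 took place 49 in the order for Mptx2, both with an r of 0.927. Mptx1 and Mptx2 had an r of 0.029 on this measure, which left Mptx2 at place 3218. These values describe 8 libraries and are given with no test.

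Among the families of the 3 genes, no member passed the threshold of the edgeR test in either direction. Of 3 intelectin symbols, only Itln1 was matched in the annotation, while Itln2 and Itlnb had no gene ID. Of 9 pentraxin genes, 5 were tested, with 2 fold changes above 0 and 3 below, and a median log2 fold change of -0.12 against 0.01 over all genes tested. The neuronal pentraxin gene Nptx1 had 62 to 130 counts in a library, and the mean level was 5.05 ± 0.397 in water and 3.90 ± 0.812 CPM in zinc mice (SD, n = 4 each). Its log2 fold change of -0.37 (SE 0.22) had an edgeR adjusted p of 0.998. Nptx2, another neuronal pentraxin, had 1 to 23 counts (log2 fold change 0.12, SE 0.68), and the neuronal pentraxin receptor gene Nptxr 9 to 36 counts (0.40, SE 0.44). Crp, which encodes C-reactive protein, had 6 to 15 counts in the water libraries and 0 to 4 in the zinc libraries. Its mean level was 0.276 CPM, and it was not tested because of these low counts. Among the 11988 genes that were tested, 340 (2.84%) had groups of log2 CPM that did not overlap, so this split alone says little. Apcs, which encodes serum amyloid P, had 6 counts in 1 water library and 0 in the other 7, and the long pentraxin genes Ptx3 and Ptx4 had 0 in all 8, where 0 counts allow up to 0.115 to 0.188 CPM. Mptx2 was the only 1 of the 9 with a mean level above 10 CPM.

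The lists of genes with a related role gave no call either. The unadjusted edgeR p was below 0.05 for 2 lectin genes, Reg3g and Reg3b, and for 0 genes of the other lists. It was below 0.05 for 558 of all 11988 genes tested, so 2 such genes over these lists say little. Of 23 matched genes for other secreted or soluble lectins 13 were tested, 9 above 0 and 4 below, with a median log2 fold change of 0.06. The smallest p belonged to Reg3g, a C-type lectin that kills Gram-positive bacteria, with 22101 to 47494 counts with water and 8483 to 19182 with zinc. In counts all 4 zinc libraries lay below all 4 water libraries. On another measure, log2 CPM on the TMM scale, groups did not overlap in either direction for 340 of the 11988 genes tested (2.84%). The log2 fold change was -1.23 (SE 0.34), with an edgeR adjusted p of 0.794. With library totals as the only scaling the same test gave Reg3g an adjusted p of 0.0382 (edgeR). Of 23 genes listed as other products of Paneth cell granules 20 were tested, 10 above 0 and 10 below. The smallest p was that of the trefoil factor gene Tff3 (log2 fold change -0.19, SE 0.19, edgeR adjusted p = 0.998), which was also on the list of goblet cell markers.

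Intelectins and other mucosal defence genes are known to respond to type 2 cytokines, and mucosal pentraxins to haem in the diet, so the genes of these inputs were listed as well. Of 6 genes for type 2 cytokine receptors and signalling 4 were tested and 0 passed the threshold, and Il4ra, a receptor chain for interleukin-4 and interleukin-13, had the smallest p (log2 fold change -0.23, SE 0.14, edgeR adjusted p = 0.998). All 11 haem handling genes were tested and 0 passed it, 9 above 0 and 2 below with a median of 0.15, and the smallest p was that of the haem transporter gene Slc48a1 (log2 fold change 0.23, SE 0.12, edgeR adjusted p = 0.998).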

How the data were processed

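RNA was sequenced from sorted Paneth cells of 8 mice, 4 with water and 4 with zinc, by the labels' groups. The authors deposited raw read counts per Ensembl gene ID with no normalization. The submitters' processing notes name FastQC 0.12.0, STAR 2.7.0a, DESeq2 and mm39. The counting program, the annotation and the treatment of multi-mapping reads are not stated in these sources. Of 55414 gene IDs, 54749 matched GENCODE M39 (GRCm39).

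Counts were tested with edgeR 4.0.16 in R 4.3.3 (default low-count filter with minimum count 10, TMM, robust quasi-likelihood F test, treatment only), with Benjamini-Hochberg adjustment over 11988 genes. SE was computed as |log2 fold change|/√F. The procedure was tested on simulated data. Shares, ratios and correlations (log2 CPM, prior count 2) were tested by exact two-sided permutation in Python 3.11.15. Total counts of 20760764 to 24117111 per library set the counting precision, and all libraries within a group differed beyond sampling noise. The libraries had no molecular identifiers.

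The 3 genes and all lists were chosen with earlier results of these data known. Named were the 3 genes, matched intelectins and pentraxins, Lyz1, the Defa sum, the gene of smallest p per other list, the 5 likest genes per gene and the 2 highest markers per cell type. Alternatives were RLE factors, library totals, Defa genes left out, DESeq2 1.42.0, limma-voom (limma 3.58.1), no filter, a minimum mean count of 50, the replicate block and each library left out. Amino acid sequences are not used here.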

Additional observations from a re-analysis of the deposited data

Results flagged for a closer look

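Both values named here belong to water 4 and to Mptx1. Its share of the counts in water 4, 0.000898%, stood farther from the other water libraries than Dixon's 95% limit for 4 samples allows. The log2 ratio of Mptx2 to Mptx1 in the same library, 9.97, stood out below the other 3 by the same limit. On the TMM scale Mptx1 in water 4 was not beyond it. In all 30 groups were examined, 2 passed, and chance flags about 1 in 20 groups. The number of Mptx1 counts in water 4 was 194, and leaving this library out gave a log2 ratio difference of -0.12 in place of 0.22.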

How the results depend on the processing

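The zinc estimates of the 3 genes stayed below significance under all alternatives run. In 44 of 48 refits they kept their sign. With 1 library left out, the log2 fold change ran from -0.16 to 0.28 for Itln1 (-0.07 without water 4 and -0.16 without zinc 1), from -0.31 to 0.13 for Mptx2 (0.13 without water 1 and 0.05 without zinc 4) and from -0.51 to -0.19 for Mptx1. The share difference of Itln1 ran from -0.074 (without zinc 1) to 0.621 percentage points, and the log2 ratio differences of Mptx2 to Mptx1 from -0.12 (without water 4; -0.07 without zinc 3) to 0.41 and of Itln1 to Lyz1 from -0.040 (without zinc 3; -0.010 without water 4) to 0.063.

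Over all genes, 3 were higher and 7 lower with edgeR, against 8 and 28 with DESeq2, 11 and 55 with no filter, which tested more genes, and 6 and 26 with the replicate block. They ran from 0 to 5 higher and from 1 to 12 lower with 1 library left out. The cause was not tested. Of the listed genes 1, Reg3g, passed with library totals only.

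The correlations depended on the scale. On library totals r was -0.51 for Itln1 and Mptx1, 0.684 for Itln1 and Mptx2, -0.55 for Mptx2 and Mptx1, 0.604 for Itln1 and Lyz1, -0.0075 for Mptx1 and Lyz1, -0.070 for Mptx2 and Lyz1, and -0.38 for Mptx1 and the Defa sum. Without the 2 libraries farthest from the median, in the order of these pairs with Mptx2 and the Defa sum last, r was -0.55, 0.845, -0.37, 0.845, 0.865, 0.609, 0.915 and 0.805.

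The labels tie no water library to the zinc library of the same number. Over genes, the deviations of 3 of the 4 same-numbered pairs correlated at 0.127 to 0.263 and those of replicates 2 at 5.51e-05, against at most 0.0397 between different numbers, and 6 of 8 libraries were closest to their own number. This is a hint of a factor shared by number. The TMM factors were close within every number, at 0.764 and 0.775, 1.02 and 0.998, 1.07 and 1.05, and 1.21 and 1.23 for water and zinc 1 to 4. What the numbers stand for is not given, and a shared factor was not tested. The fit without the block was kept because the correlation over genes did not hold in every pair. Its intervals take no account of such a factor. With the replicate block the log2 fold changes were 0.05, -0.12 and -0.34 for Itln1, Mptx2 and Mptx1 (SE 0.11, 0.12 and 0.21, against 0.33, 0.30 and 0.25 without the block; edgeR adjusted p = 0.948, 0.888 and 0.788), so the intervals of Itln1 and Mptx2 narrow, and no call on the 3 genes changed. Number by number, the share of Mptx1 was lower with zinc in 4 of 4 and the ratio of Itln1 to the Defa sum higher in 4 of 4 (exact sign-flip permutation p = 0.125 for each, the smallest that 4 pairs can give). Among the 3 genes, depth limits Mptx1, with at most 194 counts in a library.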
